A study of Mus musculus with 16 samples.

Results

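Aortas of 2 inbred mouse strains carrying the same treatment were compared: C57BL/6J mice with hypertension induced by angiotensin II (AngII) against 129S6/SvEvTac mice with AngII-induced hypertension. RNA was sequenced from whole descending thoracic aorta, the stretch of the vessel that runs through the chest, with 4 libraries in each of these groups. The series also holds 4 C57BL/6J control libraries and 4 129S6/SvEvTac control libraries, which entered the same fit and show what the strain difference was without AngII. The members are the protein-coding genes with enough counts to be tested, 14468 of the 21819 protein-coding genes in the table and of 52636 genes of any kind. The labels give tissue, strain and treatment. The sources used here do not give the age and sex of the mice or the dose and duration of AngII. Nothing in the labels says that each sample is a separate animal, so p-values reflect only the spread among samples, which can be technical.

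AngII is a peptide hormone that constricts arteries through its type 1 receptor on smooth muscle and raises blood pressure. The medial layer of the aorta is built of smooth muscle cells between elastic lamellae, and the adventitia around it of fibroblasts, collagen and resident macrophages. In a hypertensive aorta, smooth muscle cells are known to lose contractile proteins, fibroblasts to lay down collagen, and monocytes to enter the adventitia and release cytokines.

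Values are given in CPM, counts scaled to a common library total after normalisation. Acta2 and Myh11, defining genes of the smooth muscle that makes up most of the labelled tissue, reached at least 6303 CPM and 1732 CPM in every AngII library. Library totals ran from 44029105 to 61381134 counts in 7 of the AngII libraries and reached 121573945 in 129S6/SvEvTac AngII replicate 5. On the first principal component of the AngII libraries, which held 50.6% of the variance, the strains separated, at 28.35 to 77.24 for C57BL/6J and -73.24 to -39.68 for 129S6/SvEvTac. The C57BL/6J library nearest to the other strain was replicate 3, at 28.35 against 60.49 or more for the other 3. Replicates also spread more with AngII, with a median SD per gene of 0.29 log2 CPM in C57BL/6J AngII, 0.20 in 129S6/SvEvTac AngII, 0.16 in C57BL/6J controls and 0.16 in 129S6/SvEvTac controls. Casp4, an inflammatory caspase gene that many 129 strains carry in a defective form, separated the strains, at 9.85, 12.9, 8.63 and 8.68 CPM in C57BL/6J AngII aortas, against 1.13, 0.631, 0.351 and 1.49 CPM in 129S6/SvEvTac AngII aortas. Nnt, a mitochondrial transhydrogenase gene with a deletion in C57BL/6J, did not separate them, at 4.12, 6.06, 7.47 and 4.43 CPM in C57BL/6J AngII libraries and 2.14, 19.1, 19.1 and 1.53 CPM in 129S6/SvEvTac AngII libraries, and ranged from 1.95 to 13.0 CPM in 129S6/SvEvTac controls. The genome used for alignment, GRCm38, is that of C57BL/6J, so reads of the other strain were aligned across strain variants, and the part of this in any gene's difference was not tested.

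Of the 14468 genes, 4774 differed between the strains with AngII (33.0%) at an adjusted p below 0.05 by edgeR's quasi-likelihood test with Benjamini-Hochberg adjustment, which gave every adjusted p below. In C57BL/6J, 2711 were higher (18.7%) and 2063 lower (14.3%). The counts of called members of each gene list below stand beside these shares. The balance of directions moved with the scaling, to 3138 higher and 1653 lower with library totals alone and 2488 higher and 2321 lower when only protein-coding genes were fitted. The higher genes differed more, with a median size of 1.002 on the log2 scale and 1357 genes past 2-fold, against a median of 0.57 and 456 genes past 2-fold among the lower ones. The values of the 4 libraries of each strain did not overlap in 4034 genes (27.9%), with C57BL/6J above in 16.1% and below in 11.8%. Without AngII the strains differed in 1442 of the same genes (9.97%, with 5.63% higher and 4.33% lower in C57BL/6J). The gap between the 2 counts depended on the fit, since separate fits of the AngII and the control libraries called 3293 genes with AngII and 2383 in controls, and limma voom called 2665 in controls. The strain difference itself changed with AngII in 1628 (11.3%, with 6.13% of all genes changed upward and 5.12% downward). The median strain difference over all tested genes was 0.04 on the log2 scale, and 0.10 when libraries were scaled by their totals alone.

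**Figure D1:**
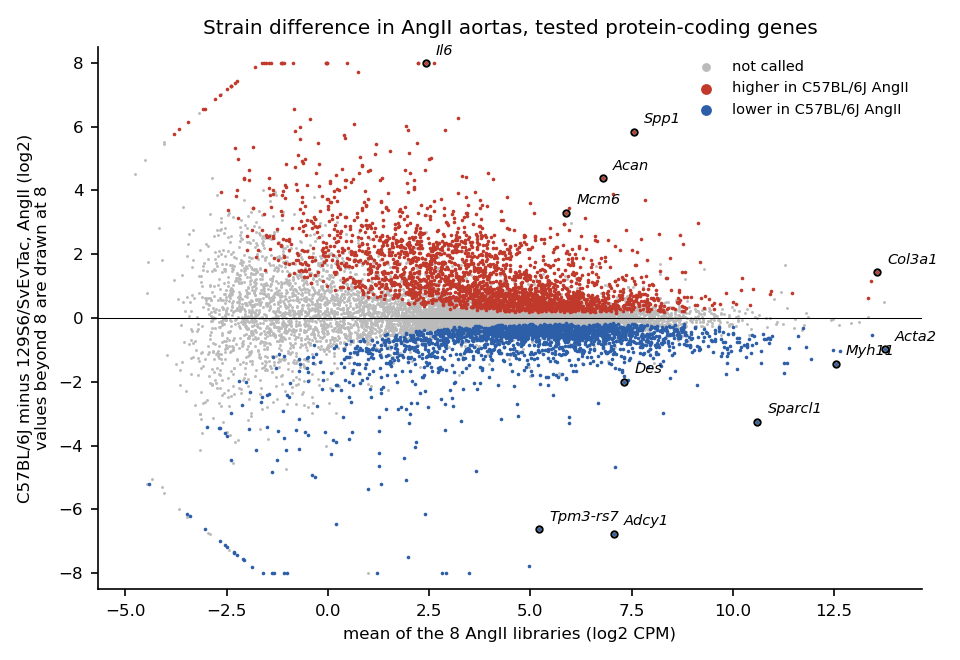
Strain difference with AngII (vertical axis, log2, C57BL/6J minus 129S6/SvEvTac, drawn up to 8 either way) against the mean of the 8 AngII libraries (horizontal axis, log2 CPM), with 1 point for each of 14468 protein-coding genes. Red points are the 2711 genes called higher in C57BL/6J and blue points the 2063 called lower; the red cloud reaches further from 0 than the blue one, while the blue points include the abundant smooth muscle genes Acta2 and Myh11.

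The smooth muscle contractile genes were lower in C57BL/6J AngII aortas. Of 28 listed genes, 25 were lower and none higher, with a median difference of -0.94 on the log2 scale against 0.04 over all genes. Acta2 (GRCm38 chromosome 19, 34241090 to 34255590, ENSMUSG00000035783.8), the actin of smooth muscle filaments, had 6303, 8234, 13700 and 8943 CPM in C57BL/6J AngII aortas, against 16560, 19480, 20630 and 16080 CPM in 129S6/SvEvTac AngII aortas. All 4 C57BL/6J values lay below all 4 of 129S6/SvEvTac, with replicate 3 nearest. The log2 fold change was -0.97 ± 0.18 (SE, adjusted p = 0.000757). Myh11 (chromosome 16, 14194535 to 14291372, ENSMUSG00000018830.8), the myosin motor of smooth muscle, had 1732, 2345, 5811 and 2964 CPM in C57BL/6J AngII aortas, against 8357, 9467, 9317 and 7630 CPM in 129S6/SvEvTac AngII aortas, again without overlap, a difference of -1.44 ± 0.26 on the log2 scale (SE, adjusted p = 0.000699). The largest difference of the list was in Des, desmin, the muscle intermediate filament protein, at 59.3, 53.01, 84.4 and 58.5 CPM in C57BL/6J AngII aortas, against 201, 271, 278 and 268 CPM in 129S6/SvEvTac AngII aortas (log2 fold change -1.996 ± 0.15, SE, adjusted p = 1.58e-07). In whole tissue, fewer smooth muscle cells and less of each RNA per smooth muscle cell cannot be told apart.

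Other contractile genes were lower by a similar size. Cnn1, calponin, an actin-binding brake on myosin, had 427, 922, 1462 and 804 CPM in C57BL/6J AngII aortas, against 2135, 2447, 2853 and 2185 CPM in 129S6/SvEvTac AngII aortas. Tagln, transgelin, averaged 4268 ± 1579 CPM in C57BL/6J AngII aortas and 8703 ± 954 CPM in 129S6/SvEvTac AngII aortas (SD, n = 4 each). Ppp1r14a, the phosphatase inhibitor CPI-17 that sensitises the filaments to calcium, averaged 74.6 ± 24.8 CPM in C57BL/6J AngII aortas and 233 ± 19.3 CPM in 129S6/SvEvTac AngII aortas. Lmod1, leiomodin, which nucleates actin filaments in smooth muscle, averaged 542 ± 184 CPM in C57BL/6J AngII aortas and 1150 ± 71.4 CPM in 129S6/SvEvTac AngII aortas. The log2 fold changes of these 4 genes were -1.41, -1.03, -1.65 and -1.08, with adjusted p from 6.88e-06 to 0.000618. The members that were not called were Myocd, Synm and Pln. In controls 1 gene was higher and 1 lower, at a median of -0.03. The change of the strain difference with AngII was called negative in 19 of the 28, against 5.12% of all genes. It was -1.01 for Acta2 (adjusted p = 0.0207) and -1.49 for Lmod1 (adjusted p = 0.00192). Omitting any AngII library left 22 to 25 contractile genes lower.

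The serum response factor that drives many contractile genes binds the CArG box. A match lay in the RefSeq promoter windows (GRCm38.p6, 250 bases before to 50 after a gene's start, both strands searched) of 2 of 23 contractile genes with a window, Myl6 and Myl9 (8.7%), and of 1.58% of 11254 tested genes with a window. Among genes called higher in C57BL/6J the share was 1.33%, and among those called lower 2.76%. The window of Myl9, the regulatory myosin light chain of smooth muscle, is shown with the match in capitals (chr2:156775214-156775513, forward strand); it was chosen after its values were seen.
Myl9: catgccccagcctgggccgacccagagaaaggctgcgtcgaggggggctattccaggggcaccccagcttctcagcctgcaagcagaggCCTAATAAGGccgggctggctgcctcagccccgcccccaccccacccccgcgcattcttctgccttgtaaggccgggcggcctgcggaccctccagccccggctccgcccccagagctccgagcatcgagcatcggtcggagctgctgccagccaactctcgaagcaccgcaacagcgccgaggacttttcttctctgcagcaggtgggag
Myl9 had 807, 1078, 1616 and 1069 CPM in C57BL/6J AngII aortas, against 5035, 3154, 4400 and 2614 CPM in 129S6/SvEvTac AngII aortas, without overlap. The match begins 161 bases before the start site, and a match is a description of letters only.

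The smooth muscle genes for calcium handling and for relaxation through nitric oxide and cyclic GMP were also lower in C57BL/6J AngII aortas. Of 26 tested, 15 were lower and none higher, at a median of -0.52. The natriuretic peptide receptors, which make cyclic GMP (Npr1 and Npr2) or clear the peptides (Npr3), were all lower. Npr1 had 176, 201, 288 and 219 CPM in C57BL/6J AngII aortas, against 367, 389, 402 and 374 CPM in 129S6/SvEvTac AngII aortas, a difference of -0.80 ± 0.12 on the log2 scale (SE, adjusted p = 0.000132). Npr3 had 36.01, 22.2, 24.2 and 35.6 CPM in C57BL/6J AngII aortas, against 68.8, 72.6, 52.4 and 58.5 CPM in 129S6/SvEvTac AngII aortas, a difference of -1.09 ± 0.17 on the log2 scale (SE, adjusted p = 0.00024). Neither gene overlapped between the strains. Prkg1, the cyclic GMP-dependent kinase that relaxes smooth muscle, differed by -0.89 (adjusted p = 0.0016) and Plcb1, a phospholipase C that acts downstream of vasoconstrictor receptors, by -0.91 (adjusted p = 3.58e-05). In controls 1 gene of this list was higher and 1 lower. The change of the strain difference with AngII was called in 3 of the 26, all downward, against 5.12% of all genes.

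Genes of the renin-angiotensin system and other vasoactive pathways had 5 of 32 higher and 7 lower, at a median of 0.19. Over all genes, 18.7% were higher and 14.3% lower. Agtr1b, which encodes a type 1 receptor of AngII, was not called. Agtr1a, another type 1 receptor gene (chromosome 13, 30336441 to 30382867, ENSMUSG00000049115.15), had 4.32, 1.91, 1.58 and 4.12 CPM in C57BL/6J AngII aortas, against 9.9, 6.49, 10.7 and 7.73 CPM in 129S6/SvEvTac AngII aortas, a difference of -1.54 ± 0.34 on the log2 scale (SE, adjusted p = 0.0029). The same direction was seen in controls, at 1.96 ± 0.877 CPM in C57BL/6J control aortas, against 7.55 ± 0.706 CPM in 129S6/SvEvTac control aortas (SD, n = 4 each, log2 fold change -1.94, adjusted p = 0.00148). Adra1d, an adrenergic receptor that constricts the aorta, was lower in C57BL/6J with AngII, at 14.9, 9.94, 21.6 and 22.9 CPM in C57BL/6J AngII aortas, against 38.4, 47.3, 49.1 and 39.03 CPM in 129S6/SvEvTac AngII aortas. In controls its means stood the other way round, at 83.2 ± 13.3 CPM in C57BL/6J control aortas, against 54.5 ± 2.91 CPM in 129S6/SvEvTac control aortas, a difference that was not called (adjusted p = 0.0663). Its strain difference changed with AngII by -1.93 (adjusted p = 0.00159). Tbxa2r, the thromboxane receptor, was lower as well (log2 fold change -1.27, adjusted p = 1.22e-06), as was Ptgis, prostacyclin synthase (-0.74, adjusted p = 6.81e-05).

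Among the vasoactive genes that were higher, Ptgs2, the inducible cyclooxygenase COX-2, had 114, 534, 283 and 50.7 CPM in C57BL/6J AngII aortas, against 16.4, 14.4, 18.2 and 17.4 CPM in 129S6/SvEvTac AngII aortas. The 4 C57BL/6J values spread widely but all exceeded those of 129S6/SvEvTac (log2 fold change 3.88 ± 0.60, SE, adjusted p = 0.000199). Ednra, the endothelin receptor of smooth muscle and fibroblasts, had 44.7, 31.8, 35.4 and 59.3 CPM in C57BL/6J AngII aortas, against 25.5, 12.04, 11.9 and 15.2 CPM in 129S6/SvEvTac AngII aortas (log2 fold change 1.41, adjusted p = 0.000486). Nos3, endothelial nitric oxide synthase, had 31.4, 28.2, 41.9 and 34.1 CPM in C57BL/6J AngII libraries and 22.6, 47.5, 22.1 and 39.2 CPM in 129S6/SvEvTac AngII libraries, which overlapped, and was not called (adjusted p = 0.918).

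Most collagen genes were higher in C57BL/6J AngII aortas. Of 21 collagen genes 12 were higher and 1 lower, at a median of 0.76. Col3a1, the chain of type III collagen (chromosome 1, 45311538 to 45349706, ENSMUSG00000026043.18), had 18410, 15630, 14400 and 21950 CPM in C57BL/6J AngII aortas, against 8930, 5064, 6081 and 5722 CPM in 129S6/SvEvTac AngII aortas (log2 fold change 1.45 ± 0.21, SE, adjusted p = 0.000111). Its exons overlap a gene model on the same strand, Gm47302, so some of its counts are uncertain. Col1a1, which encodes the major type I chain, had 17570, 16090, 10480 and 16510 CPM in C57BL/6J AngII aortas, against 9716, 4614, 6884 and 5766 CPM in 129S6/SvEvTac AngII aortas (log2 fold change 1.17 ± 0.24, SE, adjusted p = 0.0019). In both genes every C57BL/6J library exceeded every 129S6/SvEvTac library. Col5a2, a chain of type V collagen that seeds fibrils, differed by 0.83 and Col27a1, a fibrillar collagen of cartilage, by 1.39. The single lower member, Col18a1, a basement membrane collagen named after its values were seen, differed by -0.31 (adjusted p = 0.0401), and that call was lost on omitting any 1 of 6 AngII libraries, all but C57BL/6J replicates 2 and 3, or 1 of 4 control libraries, C57BL/6J replicates 1 and 3 and 129S6/SvEvTac replicates 2 and 4, at adjusted p of 0.0547 to 0.139. In controls 4 collagen genes were higher and 1 lower, at a median of 0.16. The change with AngII was called upward in 5 and downward in 1, against 6.13% and 5.12% of all genes.

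The enzymes that process and crosslink collagen followed, with 12 of 23 higher, 2 lower and a median of 0.53. The lower ones were Pcolce2 and Crtap, named after their values were seen, and 1 of them was left without C57BL/6J replicate 1 or 3 or 129S6/SvEvTac replicate 1, 2 or 4. Lox, an oxidase that joins collagen and elastin chains, had 1816, 2158, 1453 and 1367 CPM in C57BL/6J AngII aortas, against 696, 644, 662 and 834 CPM in 129S6/SvEvTac AngII aortas, a difference of 1.261 ± 0.18 on the log2 scale (SE, adjusted p = 0.000108). Its control means were 228 ± 27.1 CPM in C57BL/6J control aortas, against 175 ± 48.8 CPM in 129S6/SvEvTac control aortas (SD, n = 4 each). Loxl2, a related oxidase, and Plod1, a lysyl hydroxylase that prepares collagen for crosslinks, differed by 1.08 and 0.64 (adjusted p = 0.000506 and 0.000455). The elastic fibre genes divided into 7 higher and 5 lower of 17, against 18.7% and 14.3% of all genes. Fbn1, fibrillin of the microfibrils, was higher (0.87, adjusted p = 0.000206), whereas Fbln5, which binds elastin to cells, had 783, 709.7, 948 and 1095 CPM in C57BL/6J AngII aortas, against 1729, 1766, 1413 and 1411 CPM in 129S6/SvEvTac AngII aortas and was lower (-0.84, adjusted p = 0.000163). Mfap4, a microfibril-associated protein, was lower with AngII (-1.40) and in controls (-1.14). Eln, elastin itself, had 20680, 17680, 12070 and 13630 CPM in C57BL/6J AngII libraries and 11810, 9896, 10780 and 12710 CPM in 129S6/SvEvTac AngII libraries. These ranges overlapped, and it was not called (adjusted p = 0.189).

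Matricellular proteins, which sit in the matrix and signal to cells, and proteoglycans had 11 of 28 members higher and 4 lower, at a median of 0.30. The shares over all genes were 18.7% and 14.3%. Spp1, osteopontin, a secreted protein of macrophages and injured smooth muscle (chromosome 5, 104435118 to 104441050, ENSMUSG00000029304.14), had 118, 409.7, 853 and 95.9 CPM in C57BL/6J AngII aortas, against 10.02, 1.69, 7.55 and 6.44 CPM in 129S6/SvEvTac AngII aortas. The lowest C57BL/6J library held more than any 129S6/SvEvTac library, and the log2 fold change was 5.84 ± 0.74 (SE, adjusted p = 3.33e-05). Spp1 shares exon positions with the gene model Gm42793 on its strand. In controls Spp1 averaged 0.836 ± 0.499 CPM in C57BL/6J control aortas, against 0.719 ± 0.123 CPM in 129S6/SvEvTac control aortas (SD, n = 4 each). Acan, aggrecan, the large proteoglycan of cartilage, had 232, 344, 160.2 and 107 CPM in C57BL/6J AngII aortas, against 9.9, 9.14, 13.2 and 8.34 CPM in 129S6/SvEvTac AngII aortas, and differed in controls too, at 45.95 ± 0.784 CPM in C57BL/6J control aortas, against 4.95 ± 1.56 CPM in 129S6/SvEvTac control aortas. Lum, lumican, a proteoglycan that spaces collagen fibrils, differed by 1.47 (adjusted p = 0.000436). Tnn, tenascin W, had 23.04, 16.6, 4.62 and 29.3 CPM in C57BL/6J AngII aortas, against 0.812, 0, 0 and 0.157 CPM in 129S6/SvEvTac AngII aortas, and was at 0 in all but 1 control library.

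In the other direction, Sparcl1, an antiadhesive matrix protein, had 185, 167, 515 and 329.8 CPM in C57BL/6J AngII aortas, against 2974, 2712, 3116 and 2534 CPM in 129S6/SvEvTac AngII aortas (log2 fold change -3.25 ± 0.29, SE, adjusted p = 1.24e-06). The gap was already there in controls, at 429 ± 75.5 CPM in C57BL/6J control aortas, against 2941 ± 228 CPM in 129S6/SvEvTac control aortas. Ccn3, a matricellular protein of smooth muscle, had 893, 1261, 1721 and 1433 CPM in C57BL/6J AngII aortas, against 3215, 4017, 3802 and 3220 CPM in 129S6/SvEvTac AngII aortas. Fn1, fibronectin, and Postn, periostin, marker proteins of fibrosis, were not called between the strains (log2 fold change -0.16 ± 0.12 and -0.04 ± 0.13, SE, adjusted p = 0.341 and 0.836). The estimate of Postn changed sign with library totals as the scale, at 0.02.

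Matrix proteases and their inhibitors were higher in 18 of 31 genes and lower in 1, at a median of 0.87. Mmp14, a membrane-bound collagenase that activates other proteases (chromosome 14, 54431612 to 54445364, ENSMUSG00000000957.10), had 326, 337, 276 and 342 CPM in C57BL/6J AngII aortas, against 86.3, 63.6, 84.02 and 71.5 CPM in 129S6/SvEvTac AngII aortas (log2 fold change 2.07 ± 0.14, SE, adjusted p = 6.45e-08). Its strain difference was 0.53 in controls, and AngII changed it by 1.54 (adjusted p = 0.000795). Timp1, the inducible metalloprotease inhibitor, had 241, 540.5, 206 and 169.7 CPM in C57BL/6J AngII aortas, against 48.2, 29.7, 52.4 and 38.99 CPM in 129S6/SvEvTac AngII aortas. Ctss, cathepsin S, an elastin-degrading protease of macrophages, had 198, 93.8, 93.7 and 196 CPM in C57BL/6J AngII aortas, against 19.1, 11.2, 10.4 and 24.96 CPM in 129S6/SvEvTac AngII aortas. Adam8, a sheddase of leukocytes, averaged 13.4 ± 5.46 CPM in C57BL/6J AngII aortas and 1.23 ± 0.126 CPM in 129S6/SvEvTac AngII aortas (SD, n = 4 each). Plat, tissue plasminogen activator, differed by 1.34 with AngII and 1.16 in controls. The lower member, Adamts8, an aggrecan-cutting protease, had 26.1, 31.9, 39.8 and 38.03 CPM in C57BL/6J AngII aortas, against 93.9, 96.9, 86.4 and 103 CPM in 129S6/SvEvTac AngII aortas, and a second one was lower without C57BL/6J replicate 1, which made 2.

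**Figure D2:**
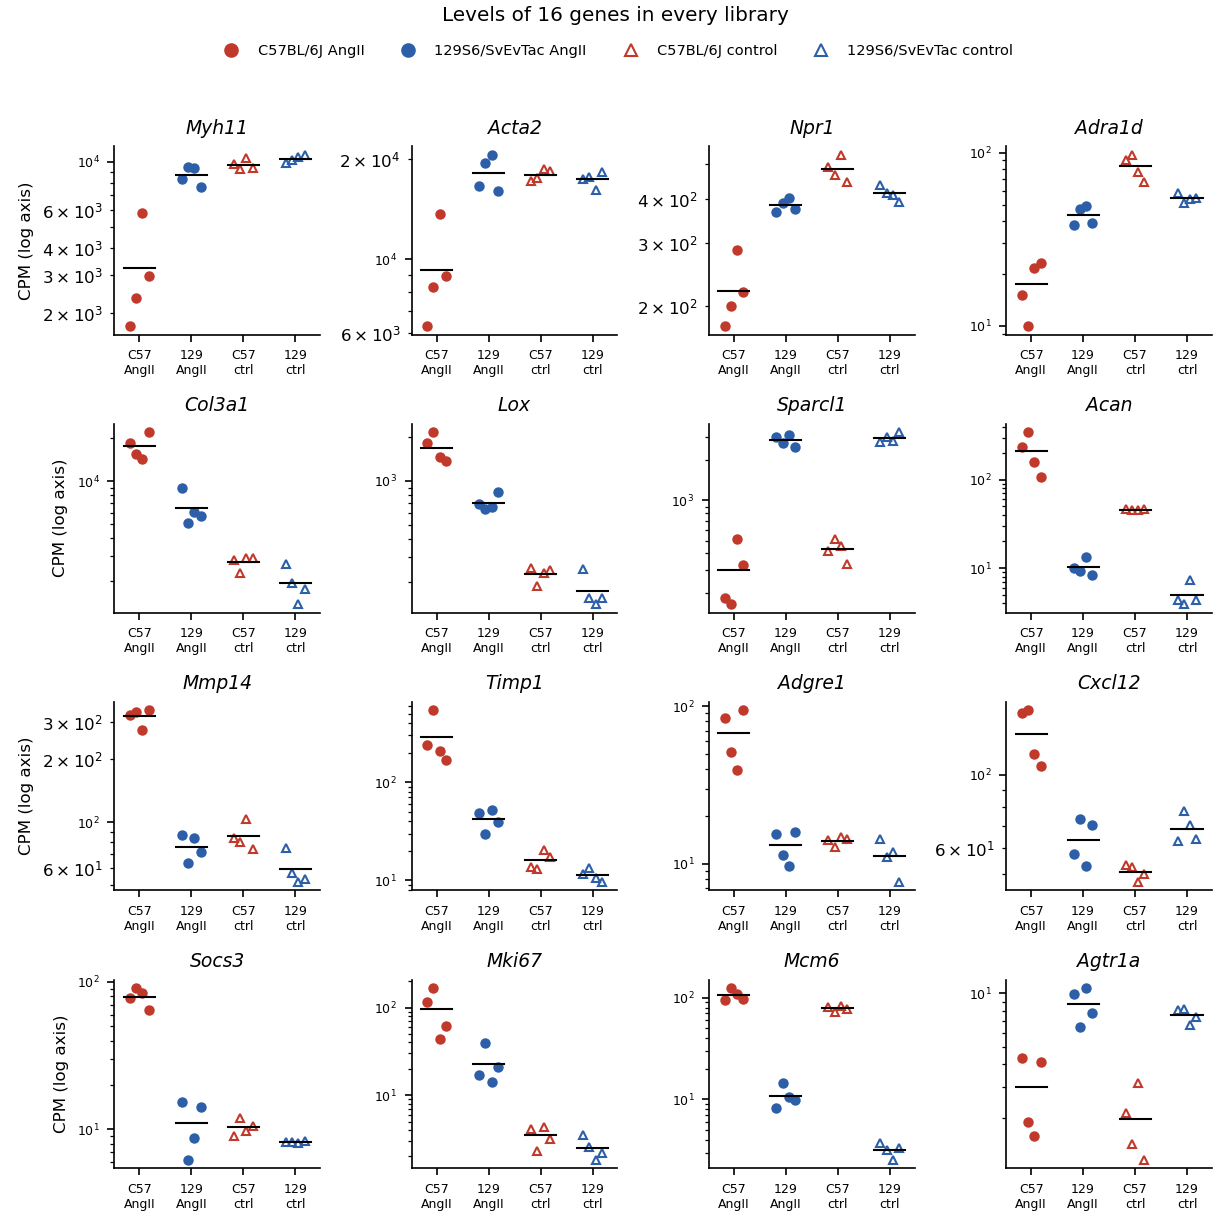
CPM on a logarithmic axis of 16 genes in every library, with a panel for each gene; filled circles are AngII and open triangles control libraries, red C57BL/6J and blue 129S6/SvEvTac, and bars mark the mean of 4 libraries. The 16 genes were picked from those called with AngII, so the lack of overlap of red and blue circles in all panels describes the choice. Over all genes, 27.9% did not overlap. Sparcl1, Acan, Mcm6 and Agtr1a were also called in controls, whereas Acta2 and Myh11 overlap there.

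TGF-beta and BMP signalling are the growth factor pathways that steer fibrosis. Of their 28 genes 8 were higher and 7 lower, against 18.7% and 14.3% of all genes, at a median of -0.15. Omitting C57BL/6J AngII replicate 5 left 5 higher, and omitting 129S6/SvEvTac AngII replicate 2 left 4. Omitting C57BL/6J AngII replicate 1 left 4 lower. Tgfb1, the ligand, was higher (97.6, 109, 87.2 and 90.8 CPM in C57BL/6J AngII aortas, against 66.97, 62.2, 73.4 and 76.5 CPM in 129S6/SvEvTac AngII aortas, log2 fold change 0.46, adjusted p = 0.000698), whereas its relative Tgfb2 was lower (-0.92, adjusted p = 0.000757). Smad6, an inhibitor of BMP signalling, had 35.9, 39.7, 29.1 and 44.1 CPM in C57BL/6J AngII aortas, against 62.7, 83.6, 57.2 and 76.8 CPM in 129S6/SvEvTac AngII aortas. In controls Smad6 was higher in C57BL/6J, at 102 ± 14.7 CPM in C57BL/6J control aortas, against 43.7 ± 3.11 CPM in 129S6/SvEvTac control aortas, so the strain order was opposite with AngII, and the change of -2.13 passed the test (adjusted p = 0.000116).

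Integrins and mechanosensing genes were lower more often than higher, at 10 and 4 of 26 and a median of -0.22. Over all genes 14.3% were lower and 18.7% higher. Itga9, an integrin of smooth muscle, had 748, 882, 1200 and 812 CPM in C57BL/6J AngII aortas, against 1782, 1689, 1737 and 1682 CPM in 129S6/SvEvTac AngII aortas. The collagen receptor Itga2 and the stretch-gated channel Piezo2 were higher, by 1.77 and 1.86 (adjusted p = 9.26e-06 and 0.000143). Of 17 osteochondrogenic genes, which mark cartilage and bone programs, 5 were higher and 1 lower, against 18.7% and 14.3% of all genes. Only 2 were higher when C57BL/6J AngII replicate 2 was omitted, and 3 without 129S6/SvEvTac AngII replicate 2 or replicate 5. The lower one was Chad, a cartilage matrix protein (call also lost without C57BL/6J replicate 3), and 0 to 3 genes were lower on omitting 1 AngII library, with 0 without C57BL/6J replicate 1 or 2 or 129S6/SvEvTac replicate 2 and 3 without 129S6/SvEvTac replicate 4. In controls 4 of the 17 were higher and 0 lower, at a median of 0.95, against a median of 0.77 with AngII. The change of the strain difference with AngII was called in 0 of the 17. Sox9, the cartilage transcription factor, had 23.3, 30.8, 27.9 and 21.3 CPM in C57BL/6J AngII aortas, against 2.62, 0.581, 2.96 and 2.54 CPM in 129S6/SvEvTac AngII aortas and differed in controls as well (log2 fold change 3.56 with AngII, 2.54 in controls).

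Chemokines and cytokines, which call in and instruct leukocytes, were higher in C57BL/6J AngII aortas in 21 of 28 genes and lower in none, at a median of 2.36. In controls 2 were higher, at a median of 0.31. The change of the strain difference with AngII was called in 10 of the 28, all upward, against 6.13% of all genes. Il6, interleukin-6, had 4.02, 16.4, 14.5 and 7.61 CPM in C57BL/6J AngII aortas, against 0, 0, 0 and 0.0524 CPM in 129S6/SvEvTac AngII aortas, so the cytokine was at or near 0 in every 129S6/SvEvTac AngII library. The fitted log2 fold change of such a gene depends on the prior count, and is given here only as 8.78 ± 0.89 (SE, adjusted p = 1.78e-05). Ccl2, the chemokine that recruits monocytes (chromosome 11, 82035571 to 82037453, ENSMUSG00000035385.5), had 24.9, 30.7, 11.97 and 14.2 CPM in C57BL/6J AngII aortas, against 0.925, 0.732, 0.461 and 1.61 CPM in 129S6/SvEvTac AngII aortas (log2 fold change 4.42 ± 0.61, SE, adjusted p = 7.35e-05). Cxcl12, a chemokine of fibroblasts and endothelium, had 154, 157, 116 and 106 CPM in C57BL/6J AngII aortas, against 57.4, 73.2, 52.8 and 70.4 CPM in 129S6/SvEvTac AngII aortas. Cx3cl1 and Cxcl16, chemokines that also exist in membrane-bound form, differed by 1.16 and 1.23 (adjusted p = 4.98e-06 and 2.79e-05).

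NF-kappaB, a transcription factor of inflammation, has a binding motif that lay in the promoter windows of 7 of 21 chemokine and cytokine genes with a window (33.3%) and of 12.5% of all 11254. The motif lay in the windows of 13.8% of the genes called higher in C57BL/6J and 13.4% of those called lower. The Il6 window (chr5:30012864-30013163, forward strand) is shown because Il6 was near 0 in 129S6/SvEvTac, with the match in capitals, 44 bases before the start.
Il6: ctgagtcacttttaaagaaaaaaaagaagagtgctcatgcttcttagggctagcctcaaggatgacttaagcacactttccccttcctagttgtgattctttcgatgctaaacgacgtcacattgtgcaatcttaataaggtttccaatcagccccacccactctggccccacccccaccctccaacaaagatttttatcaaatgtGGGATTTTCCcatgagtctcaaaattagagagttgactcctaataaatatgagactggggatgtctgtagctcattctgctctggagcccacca

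Macrophage genes were higher in C57BL/6J AngII aortas almost throughout the list. Of 29 monocyte and macrophage markers 24 were higher and none lower, at a median of 2.30. The values did not overlap in 22, all with C57BL/6J above, against 16.1% of all genes. In controls 4 were higher and 1 lower, at a median of 0.48. The change with AngII was called in 16, all upward, against 6.13% of all genes. Adgre1, which encodes the macrophage surface protein F4/80 (chromosome 17, 57358691 to 57483527, ENSMUSG00000004730.14), had 84.01, 51.5, 39.5 and 94.1 CPM in C57BL/6J AngII aortas, against 15.6, 11.5, 9.77 and 15.96 CPM in 129S6/SvEvTac AngII aortas (log2 fold change 2.35 ± 0.26, SE, adjusted p = 1.04e-05). Cd68, a lysosomal macrophage protein, had 60.2, 38.9, 27.2 and 65.2 CPM in C57BL/6J AngII aortas, against 11.2, 4.54, 9.33 and 11.9 CPM in 129S6/SvEvTac AngII aortas. Neither was called in controls, where Adgre1 averaged 14.1 ± 0.853 CPM in C57BL/6J control aortas, against 11.2 ± 2.76 CPM in 129S6/SvEvTac control aortas (SD, n = 4 each, adjusted p = 0.51) and Cd68 averaged 8.38 ± 2.06 CPM in C57BL/6J control aortas, against 5.99 ± 1.9 CPM in 129S6/SvEvTac control aortas (adjusted p = 0.446). The change of the strain difference with AngII was 2.02 for Adgre1 and 1.89 for Cd68 (adjusted p = 0.00412 and 0.022). Fcgr1, a high-affinity antibody receptor, differed by 3.35 and Cd14, a receptor for bacterial lipopolysaccharide, by 2.08. Arg1, arginase of wound-healing macrophages, had 1.97, 12.1, 11.9 and 10.2 CPM in C57BL/6J AngII aortas, against 0, 0, 0 and 0.646 CPM in 129S6/SvEvTac AngII aortas. The mean level of the whole list ran from 4.16 to 5.23 log2 CPM in C57BL/6J AngII and from 2.11 to 3.15 log2 CPM in 129S6/SvEvTac AngII, and its part in the other immune lists was not tested.

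Genes of antigen presentation and dendritic cells had 17 of 19 members higher and none lower, at a median of 2.41. The change with AngII was called upward in 2, against 6.13% of all genes. H2-Ab1, a class II chain of the major histocompatibility complex, had 235, 95.9, 71.2 and 251 CPM in C57BL/6J AngII aortas, against 43.9, 16.1, 14.6 and 44.8 CPM in 129S6/SvEvTac AngII aortas (log2 fold change 2.45 ± 0.47, SE, adjusted p = 0.001). C57BL/6J replicates 1 and 5 were high in it and replicates 2 and 3 lower, a split also seen in Adgre1. Cd86, a costimulatory ligand for T cells, differed by 2.03 (adjusted p = 3.58e-05). Cd209a, a lectin of monocyte-derived dendritic cells, had 14.9, 10, 4.73 and 8.03 CPM in C57BL/6J AngII aortas, against 0, 0, 0 and 0 CPM in 129S6/SvEvTac AngII aortas. With 0 counts in the other strain it was at least 764.9-fold higher in C57BL/6J against a floor of 3 counts over the group. It was also without counts in 129S6/SvEvTac controls, against 116 counts in C57BL/6J controls.

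Interferon response genes were higher in 23 of 29 cases and lower in 1, at a median of 2.01, against 1 and 1 in controls. The change of the strain difference with AngII itself was called in 7 of the 29, all upward, against 6.13% of all genes. Zbp1, a sensor of Z-form nucleic acid, had 15.3, 4.24, 2.12 and 11.3 CPM in C57BL/6J AngII aortas, against 0.429, 0.429, 0.198 and 0.541 CPM in 129S6/SvEvTac AngII aortas (log2 fold change 4.34 ± 0.62, SE, adjusted p = 9.95e-05). Oasl2, an antiviral oligoadenylate synthetase relative, had 39.7, 13.7, 13.6 and 37.5 CPM in C57BL/6J AngII aortas, against 4.76, 4.85, 4.46 and 5.66 CPM in 129S6/SvEvTac AngII aortas. Isg15, a ubiquitin-like protein conjugated to others under interferon, had 12.9, 3.88, 2.65 and 8 CPM in C57BL/6J AngII aortas, against 0.609, 1.72, 0.615 and 0.699 CPM in 129S6/SvEvTac AngII aortas and was named after its values were seen. Ifit1, an antiviral RNA-binding protein, had 17.4, 5.2, 8.1 and 14.7 CPM in C57BL/6J AngII libraries and 0.609, 7.75, 1.14 and 0.969 CPM in 129S6/SvEvTac AngII libraries. Here 129S6/SvEvTac replicate 2 overlapped the other strain, and the call (adjusted p = 0.0277) was lost on omitting any of 5 AngII libraries, C57BL/6J replicates 1 and 5 and 129S6/SvEvTac replicates 1, 4 and 5. The lower member, Xaf1, a proapoptotic interferon target, was also lower in controls (log2 fold change -1.58 with AngII, -2.38 in controls).

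The interferon-stimulated response element was searched as TTTC followed by any 2 bases and TTTC again, on both strands. It lay in the promoter windows of 13 of 21 interferon response genes with a window (61.9%), against 3.91% of all 11254 genes, 6.61% of the genes called higher in C57BL/6J and 2.07% of those called lower. The window of Isg15 (chr4:156200769-156201068, reverse strand) is printed in the direction of the gene and holds 3 overlapping matches on the strand opposite to it, shown in capitals, the first 78 bases before the start.
Isg15: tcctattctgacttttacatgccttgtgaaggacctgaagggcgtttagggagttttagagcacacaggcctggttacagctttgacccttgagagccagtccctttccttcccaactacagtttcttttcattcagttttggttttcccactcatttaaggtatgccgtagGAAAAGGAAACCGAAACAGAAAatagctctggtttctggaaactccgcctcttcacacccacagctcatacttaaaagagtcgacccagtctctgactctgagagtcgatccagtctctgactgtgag

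Complement genes had 8 of 18 members higher and 1 lower, with Cfb, factor B of the alternative pathway, at 1.89 and the anaphylatoxin receptor C3ar1 at 2.32 (adjusted p = 0.0001 and 5.94e-05). Cfb shares exon positions with the gene model Gm20547. Cfi, the inhibitory factor I, was the lower one, at 1, 0.628, 0.634 and 1.28 CPM in C57BL/6J AngII aortas, against 9.65, 4.95, 3.07 and 6.67 CPM in 129S6/SvEvTac AngII aortas, and was lower in controls too, at 0.0251 ± 0.0503 CPM in C57BL/6J control aortas, against 2.32 ± 0.565 CPM in 129S6/SvEvTac control aortas (SD, n = 4 each). The counts of this paragraph stand beside 18.7% higher and 14.3% lower over all genes. Of 16 T and NK cell markers 2 were higher, a count near that share, and in controls 1 was higher and 2 lower. With AngII, 4 were higher without C57BL/6J replicate 3 and 1 without C57BL/6J replicate 1 or 5 or 129S6/SvEvTac replicate 1 or 4. Omitting C57BL/6J replicate 5 made 2 lower. Cd3e, a chain of the T cell receptor complex, had 0.261, 0.238, 0.497 and 0.907 CPM in C57BL/6J AngII libraries and 0.451, 1.99, 0.264 and 0.672 CPM in 129S6/SvEvTac AngII libraries, which overlapped (adjusted p = 0.353). None of 10 B and plasma cell markers was called by edgeR's quasi-likelihood test, 0 had an unadjusted p below 0.05, and DESeq2 and limma voom called 0. Of 13 neutrophil and mast cell markers 4 were higher, among them Kit, a growth factor receptor of mast cells and progenitors (1.57, adjusted p = 0.000202). Without C57BL/6J AngII replicate 1 the count was 1, and without C57BL/6J replicate 5 or 129S6/SvEvTac replicate 2 or 4 it was 2.

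Across the 33 gene lists described, there were 12 in which the members called in 1 direction were at least as many as all its other tested members together. Among the 33, mesothelial markers had the lowest median, at -2.25, and the antigen presentation list the highest, at 2.41.

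**Figure D3:**
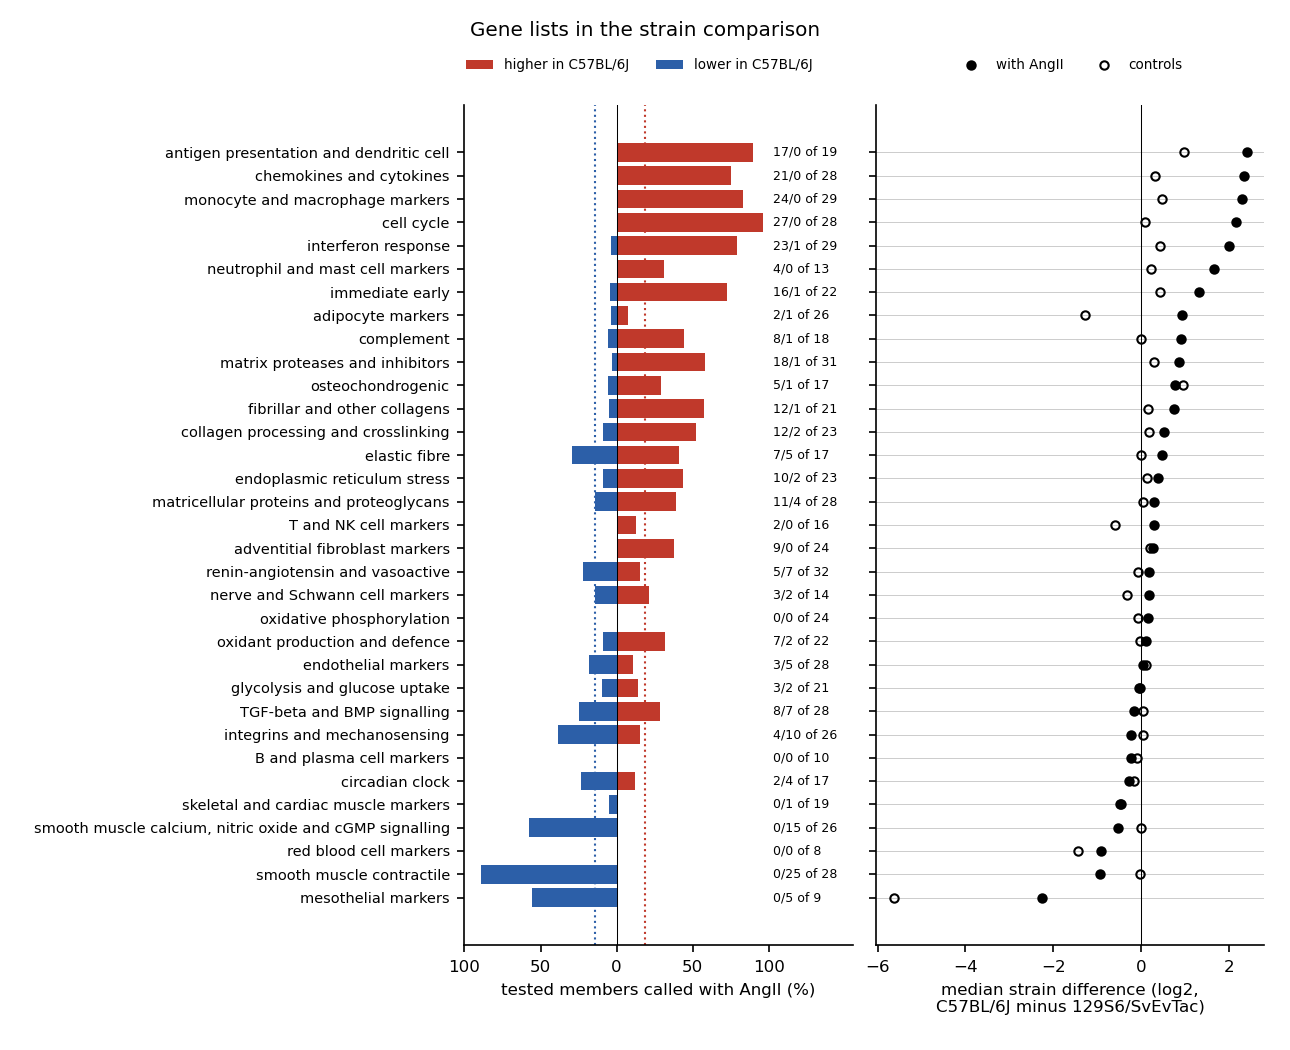
Left, the share of tested members of 33 gene lists called higher (red) or lower (blue) in C57BL/6J AngII aortas, with the counts printed as higher/lower of tested and the shares over all genes as dotted lines at 18.7% and 14.3%. Right, the median strain difference of each list (log2, C57BL/6J minus 129S6/SvEvTac) with AngII (filled) and in controls (open); the chemokine, macrophage, antigen presentation, interferon and cell cycle lists lie above 2 with AngII and under 1 in controls, and the contractile list lies at -0.94 with AngII and -0.03 in controls.

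Cell cycle genes were higher in C57BL/6J AngII aortas in 27 of 28 cases, at a median of 2.17, with 3 higher in controls at a median of 0.09. The change with AngII was called upward in 11 and downward in 2, against 6.13% and 5.12% of all genes. Mki67, the proliferation antigen (chromosome 7, 135689784 to 135716361, ENSMUSG00000031004.8), had 116, 167, 44.4 and 61.5 CPM in C57BL/6J AngII aortas, against 17.2, 38.98, 14.3 and 20.98 CPM in 129S6/SvEvTac AngII aortas (log2 fold change 2.09 ± 0.40, SE, adjusted p = 0.000933). C57BL/6J replicate 3 stood nearest to 129S6/SvEvTac replicate 2, without overlap. Cdk1, the mitotic kinase, had 28.8, 41.9, 7.96 and 14.4 CPM in C57BL/6J AngII aortas, against 3, 5.12, 2.83 and 3.45 CPM in 129S6/SvEvTac AngII aortas. Mcm6, a subunit of the replicative helicase, had 96, 124, 109 and 96.97 CPM in C57BL/6J AngII aortas, against 8.17, 14.6, 10.6 and 9.85 CPM in 129S6/SvEvTac AngII aortas. It was also higher in C57BL/6J controls, at 78.5 ± 4.67 CPM in C57BL/6J control aortas, against 3.21 ± 0.499 CPM in 129S6/SvEvTac control aortas (SD, n = 4 each). Its strain difference was 4.61 in controls and 3.30 with AngII, a change of -1.31 (adjusted p = 0.00301). Pcna, the sliding clamp of DNA replication, differed by 0.86 with AngII and 0.50 in controls.

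E2F transcription factors switch on replication genes at the start of S phase. The E2F letters TTTGGCGC, searched on both strands, lay in the promoter windows of 3 of 24 cell cycle genes with a window, Mcm3, Mcm5 and Mcm6 (12.5%), and of 1.05% of all 11254. They lay in 1.24% of the genes called higher in C57BL/6J and 0.314% of those called lower. The Mcm6 window (chr1:128359656-128359955, reverse strand) is shown because Mcm6 had the smallest p of the list, and its 2 matches, 110 and 47 bases before the start, are in capitals.
Mcm6: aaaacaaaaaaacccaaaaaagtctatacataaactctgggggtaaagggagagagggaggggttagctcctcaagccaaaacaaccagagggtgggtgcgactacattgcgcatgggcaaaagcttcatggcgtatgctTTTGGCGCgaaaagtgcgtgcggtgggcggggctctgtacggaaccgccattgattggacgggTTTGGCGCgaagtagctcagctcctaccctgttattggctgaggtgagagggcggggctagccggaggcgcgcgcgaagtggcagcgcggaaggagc

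Immediate early genes, which cells switch on within minutes of a stimulus, were higher in 16 of 22 cases and lower in 1, at a median of 1.33, and 7 were higher in controls. The change with AngII was called in 4, all upward, against 6.13% of all genes. Socs3, a feedback inhibitor of interleukin-6 family signalling (chromosome 11, 117966079 to 117970047, ENSMUSG00000053113.3), had 77.4, 90.7, 84.7 and 64.1 CPM in C57BL/6J AngII aortas, against 15.2, 6.21, 8.74 and 14.2 CPM in 129S6/SvEvTac AngII aortas. The strains did not overlap (log2 fold change 2.83 ± 0.22, SE, adjusted p = 3.4e-07), and the controls averaged 10.3 ± 1.25 CPM in C57BL/6J control aortas, against 8.21 ± 0.15 CPM in 129S6/SvEvTac control aortas (SD, n = 4 each). Myc, a growth-promoting transcription factor, had 17.7, 26.9, 28.4 and 11.9 CPM in C57BL/6J AngII aortas, against 4.89, 3.79, 3.54 and 5.92 CPM in 129S6/SvEvTac AngII aortas. Egr2 and Klf4, zinc finger transcription factors, differed by 3.29 and 0.84 (adjusted p = 2.48e-05 and 0.00016). Klf4 is known to repress contractile genes in smooth muscle.

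Among genes for oxidant production and defence, 7 of 22 were higher and 2 lower, against 18.7% and 14.3% of all genes. The higher ones included Cybb, the catalytic subunit of the phagocyte oxidase, which had 67.6, 22.4, 36.6 and 85.8 CPM in C57BL/6J AngII aortas, against 17.03, 13.4, 12.8 and 20.02 CPM in 129S6/SvEvTac AngII aortas (log2 fold change 1.75, adjusted p = 0.000996). Hmox1, heme oxygenase, had 43.4, 36.9, 186 and 47.5 CPM in C57BL/6J AngII aortas, against 22.3, 12.98, 16.4 and 17.8 CPM in 129S6/SvEvTac AngII aortas, with replicate 3 of C57BL/6J far above the other 3. Sod3, the extracellular superoxide dismutase of the vessel wall, was lower (-0.61, adjusted p = 0.000556). Endoplasmic reticulum stress genes were higher in 10 of 23 cases and lower in 2, against the same shares of all genes. Omitting 129S6/SvEvTac AngII replicate 5 left 6 of them higher. The count of lower ones was 0 to 2 on omitting 1 AngII library, and 0 without C57BL/6J replicate 1 or 5 or 129S6/SvEvTac replicate 2 or 5. Pdia6, a protein disulfide isomerase, differed by 0.91 with AngII and 0.55 in controls.

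Counts of energy and clock genes are given beside 18.7% higher and 14.3% lower over all genes. Those of glycolysis and clock genes are not read as a result about these lists. None of 24 oxidative phosphorylation genes was called by edgeR's quasi-likelihood test, 0 had an unadjusted p below 0.05, and DESeq2 and limma voom called 0, with differences from -0.15 to 0.60. Omitting C57BL/6J AngII replicate 1 gave 3 lower ones, and omitting C57BL/6J replicate 3 gave 3 higher ones. Of 21 glycolysis genes 3 were higher and 2 lower, with Pfkp, a phosphofructokinase, at -0.59, and 1 was higher without C57BL/6J replicate 1 or 129S6/SvEvTac replicate 1 or 2. Of 17 clock genes 2 were higher and 4 lower, and 1 was higher without C57BL/6J replicate 2 or 129S6/SvEvTac replicate 2 or 4. Nr1d1, the clock repressor REV-ERB alpha, had 151, 166, 229.6 and 174 CPM in C57BL/6J AngII aortas, against 387, 367, 380 and 363 CPM in 129S6/SvEvTac AngII aortas (log2 fold change -1.05, adjusted p = 0.000142); it overlaps Thra on the other strand, and the sources used here do not give the time of day of sampling.

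Markers of other cell types in the aortic wall and its surroundings were read beside these groups. Their mean levels are given as values, because 4 against 4 libraries allow an exact permutation p no smaller than 0.0286, which for a single list cannot pass after adjustment over 7 lists. Adventitial fibroblast markers averaged 7.36 ± 0.32 log2 CPM in C57BL/6J AngII and 6.81 ± 0.30 in 129S6/SvEvTac AngII (SD, n = 4 each). Of these, 9 of 24 genes were higher and none lower, against 18.7% and 14.3% of all genes. Sfrp2, a secreted Wnt modulator of fibroblasts, had 356, 209.6, 462 and 667 CPM in C57BL/6J AngII aortas, against 56.3, 22.7, 24.4 and 28.1 CPM in 129S6/SvEvTac AngII aortas, and differed in controls as well (2.58). Dpt, dermatopontin, a fibroblast matrix protein, differed by 1.27 (adjusted p = 0.000948) with AngII and was not called in controls (adjusted p = 0.251).

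Endothelial markers averaged 5.07 ± 0.17 log2 CPM in C57BL/6J AngII and 4.95 ± 0.55 in 129S6/SvEvTac AngII, and 129S6/SvEvTac replicate 2 was the highest of the 8, at 5.63. Of 28 endothelial genes 3 were higher and 5 lower, against 18.7% and 14.3% of all genes, so the counts are not read as a result about endothelium. Without 129S6/SvEvTac replicate 2 the count of higher genes was 5, and the count of lower genes was 3 without C57BL/6J replicate 1, without C57BL/6J replicate 2 or without 129S6/SvEvTac replicate 2. Pecam1, the adhesion molecule CD31, had 281, 282, 464 and 333 CPM in C57BL/6J AngII libraries and 373, 1125, 445 and 628 CPM in 129S6/SvEvTac AngII libraries, and its call (adjusted p = 0.0227) was lost without any of these 3 libraries. Adipocyte markers ranged from 3.72 to 7.43 log2 CPM in C57BL/6J AngII and from 4.35 to 6.16 in 129S6/SvEvTac AngII, with 2 of 26 genes higher and 1 lower. The count of higher ones ran from 0 to 9 on omitting 1 AngII library, with 9 without C57BL/6J replicate 3, 6 without 129S6/SvEvTac replicate 5, 1 without 129S6/SvEvTac replicate 1 and 0 without C57BL/6J replicate 1 or 5 or 129S6/SvEvTac replicate 2 or 4. Adipoq, adiponectin, the fat cell hormone, had 312, 55.02, 10.6 and 214 CPM in C57BL/6J AngII libraries and 34.6, 26.1, 31.8 and 98.5 CPM in 129S6/SvEvTac AngII libraries (adjusted p = 0.141), and was called without C57BL/6J replicate 3. The strain comparison of all genes with the adipocyte score as a covariate called 5014, against 4774 without it. The test of the change of the strain difference called 1051 with that covariate, against 1628 without it.

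Mesothelial markers, genes of the membrane that lines the chest cavity, were lower in C57BL/6J in 5 of 9 genes with AngII, at a median of -2.25, and in 9 of 9 in controls, at a median of -5.64. Their mean level was -1.22 ± 1.28 log2 CPM in C57BL/6J AngII and 1.64 ± 0.81 log2 CPM in 129S6/SvEvTac AngII (SD, n = 4 each), and the ranges overlapped. Upk3b, a uroplakin of mesothelium, had 2.92, 0.801, 0.0514 and 1.01 CPM in C57BL/6J AngII aortas, against 18.7, 5.4, 14.2 and 16.1 CPM in 129S6/SvEvTac AngII aortas. Skeletal and cardiac muscle markers gave 1 call of 19, in Myh7, the slow and cardiac myosin heavy chain, which had 0, 0, 0.12 and 0.0336 CPM in C57BL/6J AngII aortas, against 2.62, 3.1, 3.49 and 21.97 CPM in 129S6/SvEvTac AngII aortas; Myh7 overlaps the noncoding gene Mhrt on the other strand. A second muscle gene was lower without C57BL/6J replicate 1 or 2, which made 2, and 2 were higher without 129S6/SvEvTac replicate 5. Nerve and Schwann cell markers had 3 of 14 higher and 2 lower, near the 18.7% and 14.3% of all genes. Only 1 was lower without C57BL/6J replicate 1 or 2 or 129S6/SvEvTac replicate 1, 2 or 4. None of 8 red blood cell genes was called by edgeR's quasi-likelihood test, 0 had an unadjusted p below 0.05, and DESeq2 and limma voom called 0. The part of these tissues in the strain differences was not tested.

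**Figure D4:**
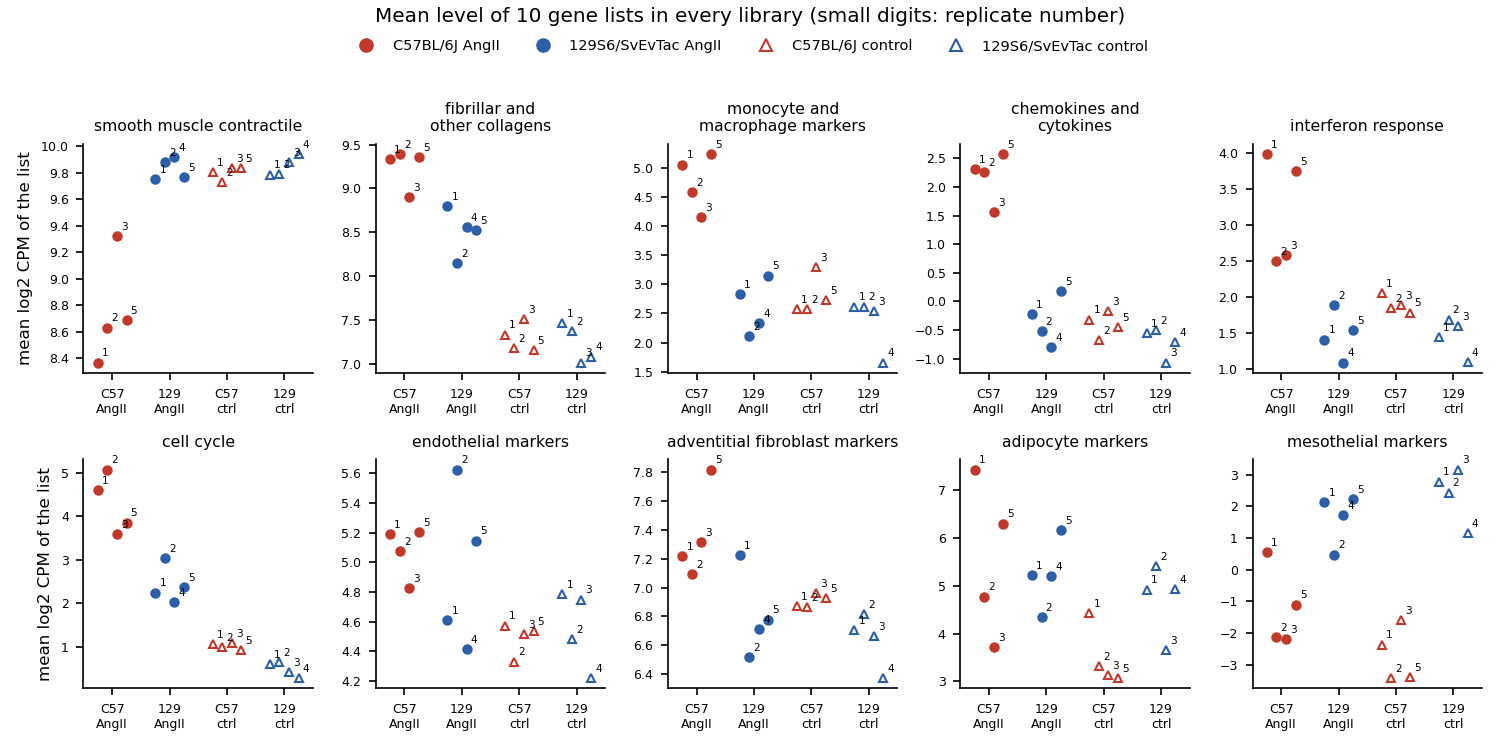
Mean level of 10 gene lists in every library (log2 CPM, with a panel for each list), with filled circles for AngII, open triangles for controls, red for C57BL/6J, blue for 129S6/SvEvTac and small digits for the replicate number. The contractile and macrophage lists do not overlap between the strains with AngII, C57BL/6J replicate 3 lies nearest to 129S6/SvEvTac in both, and the adipocyte list spreads from 3.72 to 7.43 within C57BL/6J AngII.

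Set beside the controls, which share no library with the AngII groups, the strain difference was partly constant. Both comparisons called 939 genes, 867 of them in the same direction. Those 867 are 18.2% of the genes called with AngII and 60.1% of those called in controls. A pair of ribosomal protein genes was among those of smallest p. Rpl34 had 105, 110.4, 97.5 and 101 CPM in C57BL/6J AngII aortas, against 30.3, 28.02, 25.9 and 28.1 CPM in 129S6/SvEvTac AngII aortas. Rps3a1 had 607, 679, 629 and 614 CPM in C57BL/6J AngII aortas, against 226, 241, 214 and 246 CPM in 129S6/SvEvTac AngII aortas. Both genes were higher in C57BL/6J without overlap, and both belong to families with many near-identical copies, so their counts are uncertain. Glb1, the lysosomal beta-galactosidase, differed by 1.66 with AngII and 1.32 in controls, and Glo1, glyoxalase, by -1.44 and -1.14; Glb1 shares exon positions with Tmppe.

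Several genes were nearly present or absent by strain, with AngII and without. Adcy1, an adenylate cyclase (chromosome 11, 7063489 to 7178506, ENSMUSG00000020431.5), had 1.19, 2.19, 3.13 and 3.17 CPM in C57BL/6J AngII aortas, against 208, 305, 297 and 247 CPM in 129S6/SvEvTac AngII aortas, and averaged 6.19 ± 0.895 CPM in C57BL/6J control aortas, against 617 ± 97.6 CPM in 129S6/SvEvTac control aortas (SD, n = 4 each). Trim12a, a member of the antiviral TRIM family, had 2696 counts over the C57BL/6J AngII libraries and 0 over those of 129S6/SvEvTac, at least 1005-fold higher against 3 counts over the group. Its control counts were 2997 in C57BL/6J and 0 in 129S6/SvEvTac. Of the called genes, 31 had no counts in any 129S6/SvEvTac AngII library and 20 none in any C57BL/6J AngII library. Of those 20, Eif3j2, a copy of a translation initiation factor gene, had 0 counts in the C57BL/6J AngII libraries and 3715 in those of 129S6/SvEvTac. Tpm3-rs7, a copy of a tropomyosin gene, had 0.845, 0.866, 0.462 and 0.806 CPM in C57BL/6J AngII aortas, against 71.6, 71.5, 68.6 and 80.2 CPM in 129S6/SvEvTac AngII aortas. Eno1b, a copy of the enolase gene, had 0.563, 0.303, 0.0856 and 0.202 CPM in C57BL/6J AngII aortas, against 54.7, 49.4, 79.98 and 66.4 CPM in 129S6/SvEvTac AngII aortas. All 3 are near-identical copies of other genes, so their counts are uncertain. Hal, histidine ammonia-lyase, had 0, 0.065, 0 and 0 CPM in C57BL/6J AngII aortas, against 21.1, 13.9, 18.5 and 36.1 CPM in 129S6/SvEvTac AngII aortas. Slc22a3, an organic cation transporter, had 25.4, 3.81, 3.77 and 8.37 CPM in C57BL/6J AngII aortas, against 252, 236, 327 and 239.6 CPM in 129S6/SvEvTac AngII aortas.

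**Figure D5:**
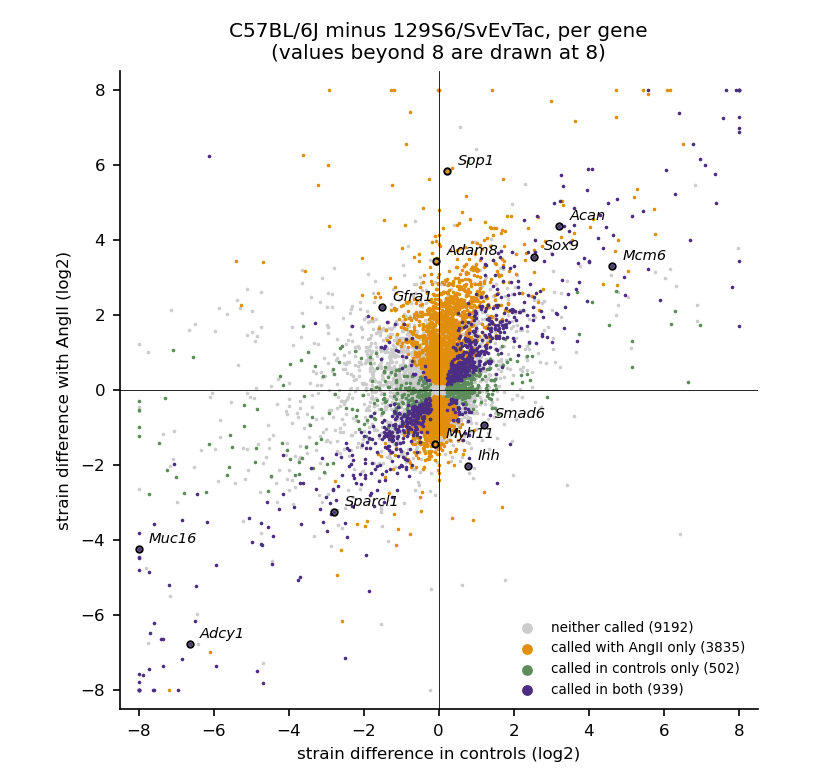
Strain difference with AngII (vertical axis, log2) against the strain difference in controls (horizontal axis, log2) for 14468 genes, drawn up to 8 either way. Purple genes were called in both (939) and lie mostly along the diagonal, as do Adcy1, Sparcl1 and Acan; orange genes were called with AngII only and include Myh11, Spp1 and Adam8 near 0 on the control axis.

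Other genes differed between the strains with AngII in a way that controls did not show, or showed in reverse. Opposite directions were called for 72 genes, 1.51% of those called with AngII and 4.99% of those called in controls. Among genes called with AngII, the change of the strain difference had its smallest p in Mob2, a regulator of NDR kinases. Mob2 had 33.7, 31.4, 34.2 and 33.7 CPM in C57BL/6J AngII aortas, against 56.5, 56.01, 56.5 and 56.6 CPM in 129S6/SvEvTac AngII aortas, whereas its controls averaged 66.6 ± 7.49 CPM in C57BL/6J control aortas, against 46.4 ± 3.04 CPM in 129S6/SvEvTac control aortas (SD, n = 4 each, change -1.28, adjusted p = 5.38e-05). Ihh, Indian hedgehog, a secreted signal of cartilage and endothelium, had 3.26, 4.09, 6.59 and 5.34 CPM in C57BL/6J AngII aortas, against 21.99, 17.3, 19.6 and 19.6 CPM in 129S6/SvEvTac AngII aortas, with 12.2 ± 2.27 CPM in C57BL/6J control aortas, against 7.14 ± 1.264 CPM in 129S6/SvEvTac control aortas. Angptl7, a secreted angiopoietin-like protein, had 19.2, 15.3, 32.3 and 22.4 CPM in C57BL/6J AngII aortas, against 83.96, 69.7, 99.3 and 57.5 CPM in 129S6/SvEvTac AngII aortas, with 26.1 ± 2.78 CPM in C57BL/6J control aortas, against 14.9 ± 1.93 CPM in 129S6/SvEvTac control aortas. All 3 were lower in C57BL/6J with AngII and higher in C57BL/6J controls.

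The reverse order was seen in Gfra1, a receptor for the growth factor GDNF, which had 19.1, 17, 12.5 and 20.3 CPM in C57BL/6J AngII aortas, against 5.39, 2.85, 2.46 and 4.09 CPM in 129S6/SvEvTac AngII aortas, with 1.54 ± 0.581 CPM in C57BL/6J control aortas, against 4.36 ± 1.2 CPM in 129S6/SvEvTac control aortas. Slc7a2, the transporter that supplies arginine to nitric oxide synthase and arginase, had 83.8, 118, 114 and 93.5 CPM in C57BL/6J AngII aortas, against 29.9, 29.6, 28.2 and 24.7 CPM in 129S6/SvEvTac AngII aortas, and was not called in controls, at 28.97 ± 4.39 CPM in C57BL/6J control aortas, against 30.3 ± 3.39 CPM in 129S6/SvEvTac control aortas (adjusted p = 0.843). The changes were 3.71 and 1.93 (adjusted p = 0.000429 and 0.000116). Omitting 1 library moved this test more than the strain comparison with AngII, which called 3959 to 5436 genes. The test of the change called 1038 genes without 129S6/SvEvTac AngII replicate 4, 998 without 129S6/SvEvTac control replicate 2 and 2849 without C57BL/6J AngII replicate 3, against 1628 with all libraries.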

How the data were processed

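RNA-seq of total RNA from descending thoracic aorta was given as 1 table of 16 libraries, 4 per group. Per the labels, the authors aligned reads with HISAT2 to GRCm38/mm10 with a Gencode annotation and estimated abundance with StringTie, and the table holds the estimated counts per gene that they deposited, unscaled. The submitters' processing notes name DESeq2 1.26.0 and R 3.6.2 without a role. The sources used here do not give the Gencode release, the strandedness or how counts were derived, so overlapping, antisense and copied genes are uncertain.

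Counts were stored as integers and fitted in edgeR 4.0.16 (R 4.3.3) on all 16 libraries with 1 mean per group. Genes were kept by filterByExpr (minimum count 10), with TMM scaling and the robust quasi-likelihood test. Benjamini-Hochberg adjustment ran over all 17125 genes tested, with calls at adjusted p below 0.05. The strain comparison with AngII, that in controls and their difference were contrasts of this fit. Log2 fold changes are C57BL/6J over 129S6/SvEvTac. Levels are CPM per TMM-scaled library, and log2 CPM use a prior count of 2. Library totals limit precision only for genes near 0 counts, and floors cover counting error only. The most similar replicates differed well beyond sampling noise (chi-square per degree of freedom 37.6), so each was counted once. Positions and gene types come from GENCODE M21 (GRCm38), promoter windows from RefSeq (GRCm38.p6).

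Named genes were the 12 largest differences in each direction with at least 5 CPM and no overlap, up to 5 called genes per list by p, a panel of known genes, and 8 genes each for differences shared with controls and differences that changed. The text describes some of these and says where a gene was chosen after its values were seen. The members and the 33 lists, with 757 entries of which 32 were not tested and 1 had no match, were chosen with earlier results of these data known. Alternatives were other scalings and filters, DESeq2 1.42.0, limma 3.58.1 (voom), covariates, fewer libraries and a replicate block. The scripts were tested on simulated counts.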

Additional observations from a re-analysis of the deposited data

Results flagged for a closer look

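The strain difference with AngII was set against the strain difference in controls by an interaction term of the edgeR quasi-likelihood fit, and 61 of 121 named genes differed between the 2 conditions (adjusted p of 5.38e-05 to 0.0469), beside 11.3% of all tested genes. Several genes, such as Mob2, were named because their difference changed, so the count is a description and no sign of how often change occurred. Each value below is the strain difference with AngII minus that in controls, on the log2 scale. These tests share libraries with the strain comparison itself, so the values are not a second line of evidence for it.

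Among contractile genes the change was -1.01 for Acta2, -1.35 for Myh11, -1.49 for Cnn1, -1.14 for Tagln, -1.29 for Des, -1.49 for Lmod1 and -1.54 for Ppp1r14a. Among receptors and signalling genes of the vessel wall it was -1.93 for Adra1d, -1.02 for Npr1, -1.21 for Tbxa2r, -1.03 for Ptgis, 2.77 for Ptgs2, 1.95 for Ednra, -1.02 for Itga9, 1.60 for Itga2 and 1.87 for Piezo2. It was -2.13 for Smad6, -2.80 for Ihh, 3.71 for Gfra1, -2.61 for Angptl7, -1.28 for Mob2 and 1.93 for Slc7a2.

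Among matrix genes the change was 0.88 for Lox, 1.60 for Lum, 5.61 for Spp1, -1.12 for Ccn3, -0.79 for Fbln5, -0.78 for Col18a1 and -0.63 for Pcolce2. Among proteases and inhibitors it was 1.54 for Mmp14, 2.27 for Timp1, 2.43 for Ctss, 3.51 for Adam8 and -1.18 for Adamts8.

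Among immune genes the change was 2.02 for Adgre1, 1.89 for Cd68, 1.85 for Cd14, 2.09 for Fcgr1, 1.92 for C3ar1, 1.84 for Cfb, 3.66 for Cfi and 1.34 for Kit. The change was 3.92 for Ccl2, 1.504 for Cxcl12, 0.91 for Cxcl16, 2.98 for Zbp1 and 1.83 for Oasl2. The fitted values of 11.72 for Il6 and 8.70 for Arg1 depend on the prior count, since most 129S6/SvEvTac libraries held 0 counts.

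The remaining genes were Socs3 at 2.50, Myc at 2.38, Egr2 at 2.08, Klf4 at 0.88, Cdk1 at 2.005 and Mcm6 at -1.31. Cybb stood at 1.54, Hmox1 at 2.34, Sod3 at -0.81, Nr1d1 at -0.89, Pfkp at -0.51 and Glo1 at -0.30.

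In 18 of 242 groups of 4 AngII libraries, 1 library lay apart from the other 3 by Dixon's criterion, where chance alone flags about 1 group in 20. In 129S6/SvEvTac AngII replicate 5, the deepest library, Adipoq reached 98.5 CPM, where the other 3 held 26.1 to 34.6 CPM. There Myh7 stood at 21.97 CPM against 2.62 to 3.49 CPM and Pdia6 at 133.6 CPM against 157.6 to 160.7 CPM. The same library alone held reads of Il6 (0.0524 CPM), Arg1 (0.646 CPM) and Trim30d (0.0611 CPM). In 129S6/SvEvTac AngII replicate 2, Ifit1 stood at 7.75 CPM against 0.609 to 1.14 CPM, Isg15 at 1.72 CPM against 0.609 to 0.699 CPM, Prkg1 at 58.2 CPM against 43 to 45.4 CPM and Mob2 at 56.0 CPM against 56.5 to 56.6 CPM. In 129S6/SvEvTac AngII replicate 1, Des stood at 200.9 CPM against 268 to 278 CPM and Sfrp2 at 56.3 CPM against 22.7 to 28.1 CPM. In 129S6/SvEvTac AngII replicate 4, Ppp1r14a stood at 262 CPM against 222 to 225 CPM.

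In C57BL/6J AngII replicate 3, Hmox1 stood at 186 CPM against 36.9 to 47.5 CPM and Tpm3-rs7 at 0.462 CPM against 0.806 to 0.866 CPM. In C57BL/6J AngII replicate 2, Olr1 stood at 22.3 CPM against 1.73 to 3.79 CPM, and this library alone held reads of Hal (0.065 CPM). In C57BL/6J AngII replicate 1, Gbp2b stood at 3.3 CPM against 0 to 0.185 CPM.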

How the results depend on the processing

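The count of the strain comparison with AngII and the 12 lists with most members called in 1 direction moved by less than 1.5 times under every alternative run. Leaving out 1 library gave 3959 to 5436 genes called with AngII, 9 to 12 such lists, and 1061 to 1742 genes called in controls. It gave 998 to 2849 genes for the change of the strain difference. Genes called in controls numbered 2665 with limma voom and 2383 when only the control libraries were fitted. Genes called for the change numbered 2558 with DESeq2, 2564 with limma voom, 1051 with the adipocyte score as a covariate and 1009 without C57BL/6J AngII replicate 1 and 129S6/SvEvTac AngII replicate 5, and the cause was not tested. Of 121 named genes, 107 kept their call, or lack of one, under all 28 alternatives.

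Signs turned in 4 genes that were not called under any setting. Leaving out 1 AngII or control library gave -1.32 to 0.045 for Cd3e, with the positive value without 129S6/SvEvTac AngII replicate 2. It gave -0.086 to 0.28 for Nos3, negative without 129S6/SvEvTac AngII replicate 1 or 4 or C57BL/6J AngII replicate 3, and -0.13 to 0.076 for Postn, positive without 129S6/SvEvTac AngII replicate 4 or C57BL/6J AngII replicate 3 or 5. Nnt was at 0.18 with limma voom. Nos3 was at -0.12 with the replicate block, and Postn at 0.040 with the block and 0.020 with library totals as the scale. With the replicate number as a block, 3988 genes were called with AngII, 1118 in controls and 1539 for the change. Same-numbered libraries did not deviate together, at correlations of -0.06 to 0.15, so the numbers were not taken to pair libraries. The calls of Arg1, Myh7, Upk3b and Pecam1 were lost with limma voom, of Col18a1, Crtap and Ifit1 under the block and with the AngII libraries alone, of Pecam1 with the AngII libraries alone, and of Col18a1, Crtap and Chad without the low-count filter. The p-values cover the spread of 4 libraries a group, and the depth limits genes near 0 counts.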

Other observations

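A family of interferon-inducible genes on chromosome 1 was expressed in different members by strain. Ifi202b, which encodes a cytosolic DNA-binding protein, had 0 counts over the C57BL/6J AngII libraries and 1149 over those of 129S6/SvEvTac, at least 328.7-fold lower in C57BL/6J against 3 counts over the group. Its relatives ran the other way, with 413 counts of Ifi206 and 187 counts of Ifi213 in C57BL/6J AngII and 0 of either in 129S6/SvEvTac AngII. Ifi209 averaged 7.8 CPM in C57BL/6J AngII and 0.119 CPM in 129S6/SvEvTac AngII. Trim30d averaged 9.35 CPM in C57BL/6J AngII and 0.0153 CPM in 129S6/SvEvTac AngII, whereas Gbp2b, a guanylate-binding protein gene, averaged 0.887 CPM in C57BL/6J AngII and 24.4 CPM in 129S6/SvEvTac AngII. These gene families have close copies, so their counts are uncertain, and Ifi206, Ifi213 and Ifi202b were chosen after their values were seen.

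Olr1, a scavenger receptor for oxidised LDL, averaged 7.81 CPM in C57BL/6J AngII and 0.208 CPM in 129S6/SvEvTac AngII, and under 0.05 CPM in both control groups. Calls were spread over the genome. The share of tested genes called with AngII lay between 30.1% on chromosome 10 and 36.1% on chromosome 1 among autosomes and was 30.2% on chromosome X. The share called in the same direction also in controls was 1.86% on chromosome X and 3.55% to 9.59% on the autosomes. Genes of other annotated types differed in 163 cases upward and 425 downward of 2630 tested.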
